A study of Mus musculus with 2 samples.

Results

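The 40 genes described here act in mitosis. They were chosen by name, as a list of genes of mitotic entry, the spindle, the kinetochore, the spindle checkpoint, chromosome segregation and cytokinesis, and were looked up by gene symbol among the probes of a mouse bead array. Of the 40 genes, 38 had at least 1 probe, with 76 probes in all, and Mki67 and Ccnb1 are not analysed here. A probe was taken as detected where its detection p, its rank among negative-control beads, was under 0.01. By that limit 29 members were detected on both arrays, 1 (Pttg1) on the Terc+/+ array only and 8 on neither, so 30 of the 40 enter the comparison, out of 9953 genes detected on at least 1 array.

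The study compared whole tibia of G3 Terc-/- mice, which lack the RNA component of telomerase, with tibia of Terc+/+ mice. All mice were untreated C57BL/6 females of 22 weeks. Each genotype was a single array, hybridised with RNA mixed from 3 animals. There is therefore no spread between samples, no test and no p-value for any difference below, and with so few arrays each value has limited precision. The deletion is carried in the germline, so all cell types of the bone and its marrow lacked Terc in the Terc-/- mice, and the shaft, growth cartilage, marrow and attached tissue were measured together. In such a mixture, fewer dividing cells and less RNA per cell cannot be told apart.

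In dividing cells, cyclin-dependent kinase 1 bound to A- and B-type cyclins starts mitosis, and Aurora and Polo-like kinases shape the bipolar spindle. The spindle checkpoint holds the anaphase-promoting complex inactive until all kinetochores are attached, after which cyclin B and securin are degraded and the chromatids part. Transcripts of many of these proteins are at their highest level in G2 and mitosis, so that in a tissue they can follow how many cells are dividing. In adult long bone most dividing cells are blood-cell precursors of the marrow, with smaller pools in the growth plate and at bone surfaces.

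A feature the choice of genes did not use is shared by most of their promoters. Genes of this phase are known to carry CCAAT boxes, bound by the factor NF-Y, and a cell-cycle homology region (CHR), bound by the MuvB core of the DREAM complex. RefSeq promoter windows of assembly GRCm38.p6, running from 250 bases before to 50 bases after an annotated start, were found for 33 of the 40 members, in 36 windows. Searched on both strands, CCAAT was present in 28 of the 36 windows (77.8%), against 37.4% of all 32851 windows of the same length. The CHR letters TTTGAA or TTCGAA were present in 29 windows (80.6%), against 19.2% of all windows, and both kinds of element together in 26 windows (72.2%), against 7.52% of all windows. These are matches of letters and not shown sites, and no binding was measured in this study.

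The 4 promoters below hold a CHR and the most CCAAT matches of the members, and are shown as the clearest cases of the shared layout. Capitals mark CCAAT (or its reverse complement ATTGG) and the CHR letters in either direction. In Ube2c a CCAAT and an ATTGG overlap in a single stretch, and in Cdca8 a CHR overlaps an ATTGG. All are written 5′ to 3′ on the strand of the gene.
Top2a, chr11:99024140-99024439, minus strand: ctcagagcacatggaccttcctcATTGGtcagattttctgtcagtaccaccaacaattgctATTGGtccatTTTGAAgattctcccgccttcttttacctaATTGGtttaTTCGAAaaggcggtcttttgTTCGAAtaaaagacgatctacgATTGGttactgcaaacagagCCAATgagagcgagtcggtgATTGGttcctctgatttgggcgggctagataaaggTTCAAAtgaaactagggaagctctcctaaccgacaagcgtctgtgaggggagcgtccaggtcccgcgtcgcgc
Ube2c, chr2:164769679-164769978, plus strand: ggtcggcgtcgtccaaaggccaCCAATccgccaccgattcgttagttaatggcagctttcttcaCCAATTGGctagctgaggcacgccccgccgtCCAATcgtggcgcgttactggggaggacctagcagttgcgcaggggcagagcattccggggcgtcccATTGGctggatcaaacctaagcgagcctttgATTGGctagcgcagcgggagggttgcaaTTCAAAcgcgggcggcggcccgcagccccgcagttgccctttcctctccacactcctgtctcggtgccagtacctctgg
Hmmr, chr11:40733388-40733687, minus strand: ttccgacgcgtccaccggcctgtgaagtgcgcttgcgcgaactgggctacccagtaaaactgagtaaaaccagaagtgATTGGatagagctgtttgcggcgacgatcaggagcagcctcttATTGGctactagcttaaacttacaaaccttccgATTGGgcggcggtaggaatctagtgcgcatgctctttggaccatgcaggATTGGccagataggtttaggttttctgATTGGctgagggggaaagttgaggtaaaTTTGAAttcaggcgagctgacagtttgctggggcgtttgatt
Cdca8, chr4:124936868-124937167, minus strand: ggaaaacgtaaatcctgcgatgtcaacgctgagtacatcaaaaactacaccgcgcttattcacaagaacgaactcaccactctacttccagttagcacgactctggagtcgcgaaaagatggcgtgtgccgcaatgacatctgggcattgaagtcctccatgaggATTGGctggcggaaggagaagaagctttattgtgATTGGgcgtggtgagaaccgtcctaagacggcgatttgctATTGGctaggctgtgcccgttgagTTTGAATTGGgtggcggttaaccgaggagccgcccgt

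The window of Top2a held 6 CCAAT matches and 4 CHR matches, the CHR nearest to the start beginning 23 bases before it (position -23). That of Ube2c held 6 CCAAT matches and 1 CHR at -29, that of Hmmr 5 and 1, and that of Cdca8 4 and 1. Birc5, Mad2l1, Nuf2, Nusap1 and Pttg1 had windows with neither kind of element in these letters. Members with this layout differed in how they compared between the pools. Top2a and Cdca8 differed by -0.12 and -0.13 on the log2 scale, Ube2c by -0.87, and Hmmr was not well above background on either array.

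**Figure D1:**
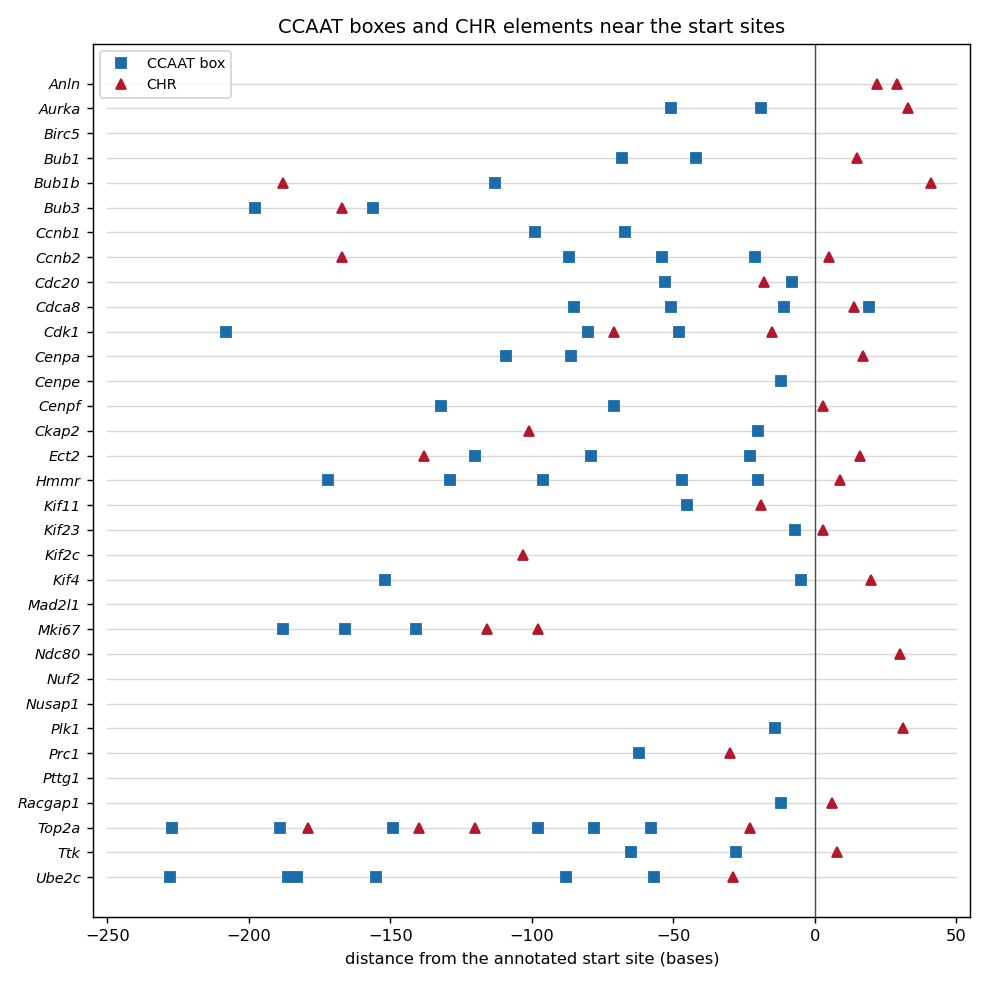
Positions of CCAAT boxes (blue squares) and CHR elements (red triangles) in the promoter window of each member with a RefSeq window, 1 window per gene, in bases from the annotated start. Most rows carry a CCAAT box upstream of a CHR, as in Ttk, Bub1 and Hmmr.

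Across the members, the mitotic transcripts had similar levels in both pools. None of the 30 detected members was 2-fold or more lower in Terc-/- and none 2-fold or more higher, in a comparison in which 8.81% of all 9953 detected genes were lower and 6.86% were higher by that size. These are counts by size and not by a test. Over the detected members the log2 difference in normalized intensity, Terc-/- minus Terc+/+, ran from -0.87 to 0.42 with a median of 0.07, where all detected genes had a median of 0.01. Of the 29 members detected on both arrays, 12 were below 0 and 17 above it, as were 4035 and 4738 of the 8781 genes detected on both arrays. In size, 25 of the 29 (86.2%) lay within 0.5 of 0, as did 59.4% of those 8781 genes.

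The raw intensities of the members were also similar on both arrays. The summed raw intensity of the 30 detected members, each by its brightest probe, was 62759.7 on the Terc-/- array and 63980.3 on the Terc+/+ array. Over all 9953 detected genes the same sum was 15584324.8 on the Terc-/- array and 14076912.5 on the Terc+/+ array. The member sum thus did not share the higher total of the Terc-/- array, and bright genes such as Cenpa weigh most in it. Of the 29 members detected on both arrays, 20 had the higher raw value on the Terc-/- array, and 17 after normalization. The Terc-/- array was slightly brighter, by a median factor of 1.07 over probes detected on both arrays after background correction. Median raw intensities of the arrays were 138 for Terc-/- and 127 for Terc+/+, and 15363 and 16640 of 45281 probes were detected on them.

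**Figure D2:**
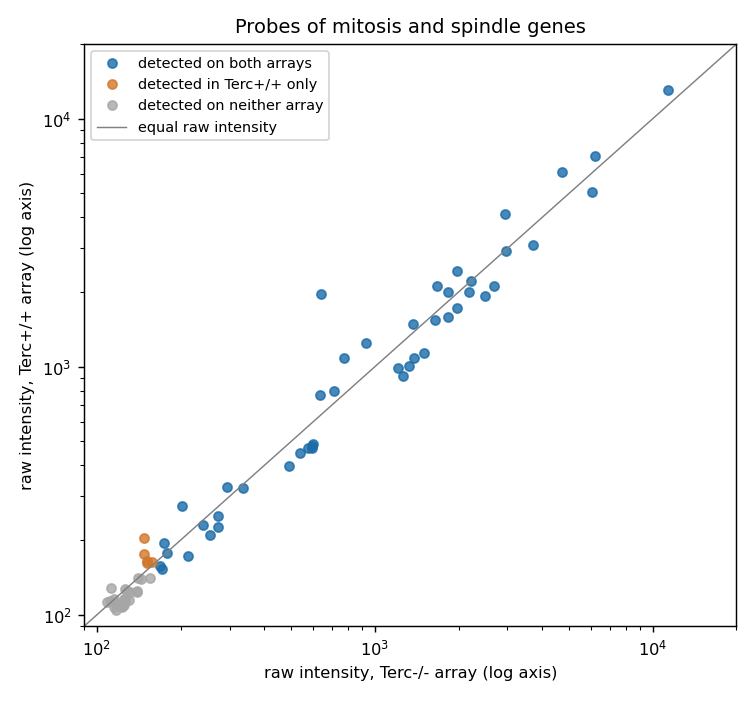
Raw intensity of the 76 member probes on the Terc-/- array (x, log axis) and on the Terc+/+ array (y, log axis), with the line of equal intensity. The 46 probes detected on both arrays (blue) follow the line apart from a Kif23 probe at 639 in Terc-/- and 1961 in Terc+/+, 5 probes were detected in Terc+/+ only (orange) and 25 on neither array (grey).

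The 6 detected genes of mitotic entry, out of 8, were all above 0, as were 50.8% of all detected genes. Their differences were 0.07 to 0.42 with a median of 0.25. Those of Cdk1, Plk1, Aurka and Ccna2 were smaller than 0.313, the SD between probes of a gene on these arrays. Cdk1, the kinase that drives cells into mitosis, had raw intensities of 2494 in Terc-/- and 1921 in Terc+/+, a normalized difference of 0.27, or 1.21-fold. Plk1, the Polo-like kinase of centrosome maturation and mitotic entry, had 2681 in Terc-/- and 2116 in Terc+/+, a difference of 0.22. The difference was in the same direction for both genes and well inside 2-fold.

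Foxm1, the transcription factor that activates G2 and mitotic genes, had 2 detected probes. They read 599 and 596 in Terc-/- and 486 and 471 in Terc+/+, with differences of 0.35 and 0.39. Cdc25c, the phosphatase that removes inhibitory phosphate from Cdk1, had raw values of 272 in Terc-/- and 226 in Terc+/+, a difference of 0.42, and its further detected probe differed by 0.51. The 2 detected probes of each of these genes thus gave nearly the same value, but the Cdc25c difference came to 0.24 without background correction.

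Aurka, the Aurora kinase of spindle poles, read 1968 in Terc-/- and 1717 in Terc+/+, which after normalization is a difference of 0.07. Ccna2, cyclin A2 of S phase and mitotic entry, read 240.1 in Terc-/- and 230.3 in Terc+/+, also 0.07 and at -0.01 under scaling to a common median or cyclic loess. Ccnb2, a B-type cyclin, was not well above background on either array.

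The 4 detected members of the spindle checkpoint, of 5, were also above 0, with differences of 0.02 to 0.38 and a median of 0.19. Only Bub3 differed by more than the between-probe SD of 0.313. Bub3, which docks the checkpoint proteins at kinetochores, had raw intensities of 492 in Terc-/- and 397 in Terc+/+, a difference of 0.38, and a further probe close to the detection limit differed by 0.11. Ttk, the kinase that starts checkpoint signalling, read 172 in Terc-/- and 153 in Terc+/+, a difference of 0.29 that came to 0.10 without background correction.

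Mad2l1 and Bub1b encode the checkpoint proteins Mad2 and BubR1, which bind and inhibit Cdc20. Mad2l1 had raw values of 1832 in Terc-/- and 1589 in Terc+/+, a difference of 0.09, with a further probe at 0.22. Bub1b read 2189 in Terc-/- and 2004 in Terc+/+, a difference of 0.02, with a further probe at 0.30, and its sign turned to -0.06 under cyclic loess. Neither probe of Bub1, the checkpoint kinase of the kinetochore, was well above background.

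Regulators of the anaphase-promoting complex were divided. Ube2c, the ubiquitin-conjugating enzyme that works with the complex, had the largest difference among the detected members with background correction. Its raw intensity was 202 in Terc-/- and 275 in Terc+/+, a normalized difference of -0.87, or 1.83-fold lower. The size depended on the background, since it was -0.47 without background correction, where Birc5 (-0.66), Nusap1 (-0.55) and Kif4 (-0.50) differed by more, and -0.96 with scaling to a common median.

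Cdc20, the activator of the complex at the start of anaphase, had 4 probes detected on both arrays. Its brightest probe read 3702 in Terc-/- and 3089.7 in Terc+/+, a difference of 0.10, and the others were at 0.33, 0.34 and 0.60. All 4 were thus on the higher side in Terc-/-. Pttg1, securin, the inhibitor of separase, was detected in Terc+/+ only, with raw values of 151 in Terc-/- and 161 in Terc+/+. Its normalized value in Terc+/+ did not exceed the lowest detected signal of the Terc-/- array, so no fold is given.

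The chromosomal passenger complex, which corrects faulty attachments and later guides cytokinesis, had members on both sides of 0. Aurkb, its kinase, read 1264 in Terc-/- and 921 in Terc+/+, a difference of 0.42, or 1.34-fold. Birc5, survivin, read 2944 in Terc-/- and 4129 in Terc+/+, a difference of -0.68, or 1.60-fold lower. The further probes of Birc5 were at -0.49 and -0.45, so all 3 were lower in Terc-/-.

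The other subunits differed little. Incenp, the scaffold, had raw intensities of 1651 in Terc-/- and 1539 in Terc+/+, a difference of -0.01. Cdca8, borealin, read 2958 in Terc-/- and 2928 in Terc+/+, a difference of -0.13, with a further probe at -0.22. Under scaling to a common median Incenp was at 0.10 and Cdca8 at 0.02. The kinase and survivin lay on opposite sides of 0, and stayed there with common-median scaling (0.50 and -0.50) and cyclic loess (0.34 and -0.71).

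Birc5 and Ube2c were the 2 members 1.5-fold or more lower in Terc-/- and none was 1.5-fold or more higher, where 17% of all detected genes were lower and 17% higher by that size. The count of 2 came to between 1 and 4 with other processing.

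Kinetochore and centromere genes were split as well. Cenpa, the histone H3 variant that marks the centromere, read 11349 in Terc-/- and 13094 in Terc+/+, a difference of -0.41, with a further, dim probe at -0.08. Cenpf, a large kinetochore and nuclear matrix protein of G2 and mitosis, read 174 in Terc-/- and 194 in Terc+/+, a difference of -0.45 that came to -0.19 without background correction. Ndc80, the microtubule-binding subunit of the outer kinetochore, was on the other side, with 594 in Terc-/- and 477 in Terc+/+, a difference of 0.36. Its partner subunit Nuf2 and the kinetochore motor Cenpe were not well above background on either array.

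Among the kinesins, Kif11, the motor that pushes spindle poles apart, read 573 in Terc-/- and 468 in Terc+/+, a difference of 0.34. Kif2c, which depolymerises microtubules at centromeres, read 1381 in Terc-/- and 1088 in Terc+/+, a difference of 0.28. Kif4, the chromosome-arm motor, read 927 in Terc-/- and 1243 in Terc+/+, a difference of -0.55. Its further probes were at -0.26 and 0.19, so the probes of Kif4 did not share a direction.

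Spindle-binding proteins were lower or near 0. Nusap1, which bundles spindle microtubules around chromosomes, read 4713 in Terc-/- and 6111 in Terc+/+, a difference of -0.56, or 1.47-fold lower. Further Nusap1 probes were detected in Terc+/+ only, and against the detection floor of the Terc-/- array they allow differences of at least 0.05 and 0.28 in the same direction. Tpx2, the activator of Aurka at the spindle, read 636 in Terc-/- and 767 in Terc+/+, a difference of -0.37. Ckap2, a spindle pole protein, was at 0.07, and Hmmr, a spindle protein also known as RHAMM, was below the limit on both arrays.

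Of the midzone and cytokinesis genes, Prc1, which crosslinks the microtubules of the central spindle, read 6186 in Terc-/- and 7072 in Terc+/+, a difference of -0.34. Anln, anillin, the scaffold of the contractile ring, read 1834 in Terc-/- and 1993 in Terc+/+, a difference of -0.25. Kif23, the kinesin subunit of the centralspindlin complex, gave the widest spread between probes of the members. Its brightest probe read 6028 in Terc-/- and 5059 in Terc+/+, a difference of 0.07, while another read 639 in Terc-/- and 1961 in Terc+/+, a difference of -1.89. A further Kif23 probe was at -0.24, and the remaining probe was detected in Terc+/+ only, with a bound of -0.02. Kif20a, Ect2 and Racgap1, which act with these proteins in the midzone, had no probe well above background.

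Top2a, the topoisomerase that untangles sister chromatids, also had probes that differed in size. The brightest read 2215 in Terc-/- and 2210 in Terc+/+, a normalized difference of -0.12. A further probe read 777 in Terc-/- and 1082 in Terc+/+, a difference of -0.61, and a dim probe detected in Terc+/+ only had a bound of -0.75. All 3 probes were on the lower side in Terc-/- in this scaling, but the size is not settled by these arrays.

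**Figure D3:**
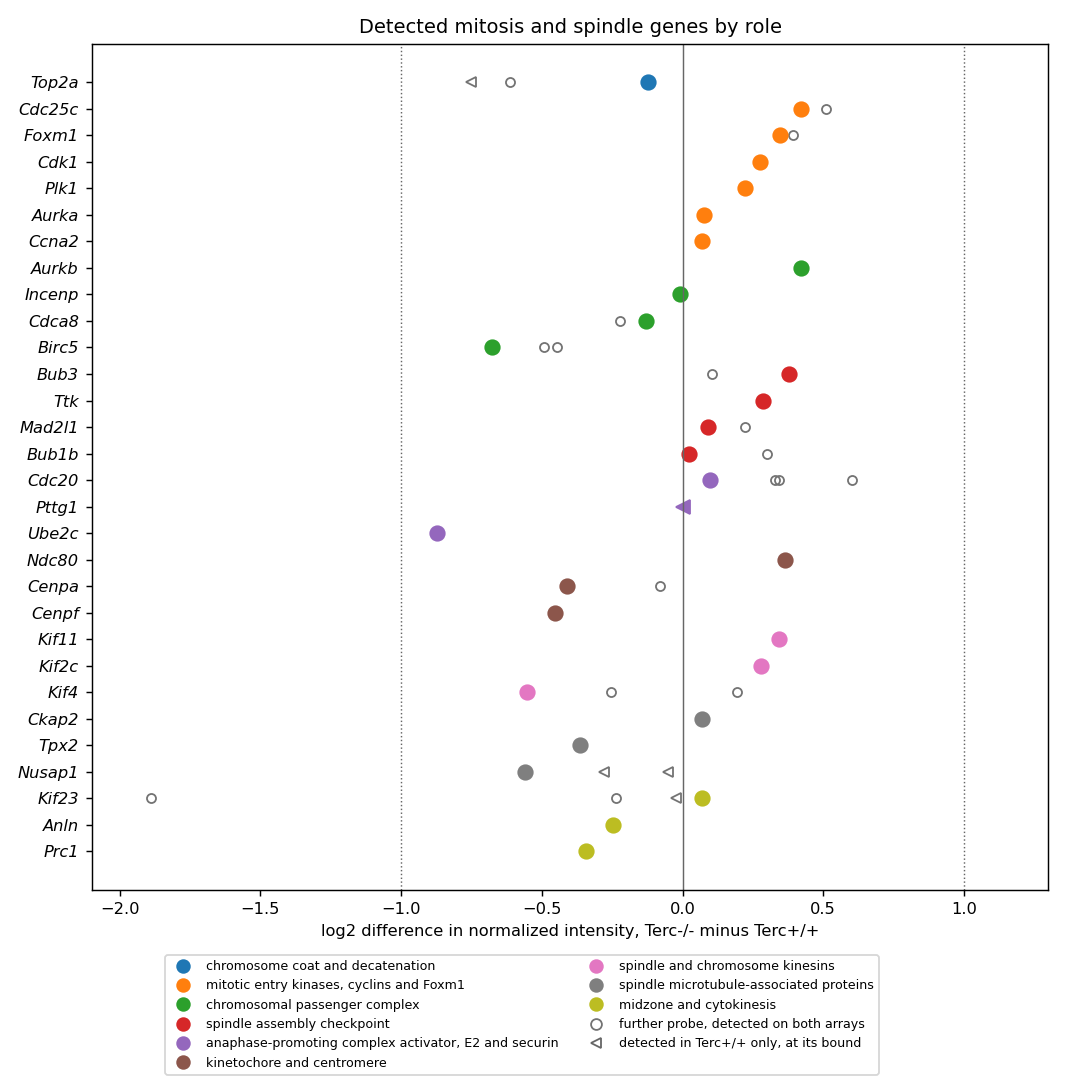
Normalized log2 difference, Terc-/- minus Terc+/+, of the 30 detected members, grouped and coloured by role, with further probes detected on both arrays as open circles and probes detected in Terc+/+ only (Pttg1 among them) as triangles at their bound. The filled symbols lie between -0.87 and 0.42, inside the dotted 2-fold lines, and a single probe of Kif23 (-1.89) lies beyond them.

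Probes of the same gene give the only measure of error within these arrays, and it covers the probes and not the mice. Of the members, 12 had at least 2 probes detected on both arrays, and for 10 of them the probes shared a direction, the other two being Kif23 and Kif4. The SD of the log2 difference between probes of a gene was 0.313 over 2870 genes and 0.414 over the members. Of the 29 members detected on both arrays, 15 (51.7%) differed by less than 0.313, as did 42.0% of all genes detected on both arrays. Of the 6 ways of scaling the arrays, 4 keep probe ranks and give both arrays the same or nearly the same distribution. These 4 hardly allow a sign to turn. Under the others, common-median scaling and cyclic loess, 23 of the 29 members kept their sign, 14 being higher and 9 lower in Terc-/-. The sign turned for Top2a, Ccna2, Bub1b, Incenp, Cdca8 and Ckap2, whose differences lay between -0.13 and 0.07.

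**Figure D4:**
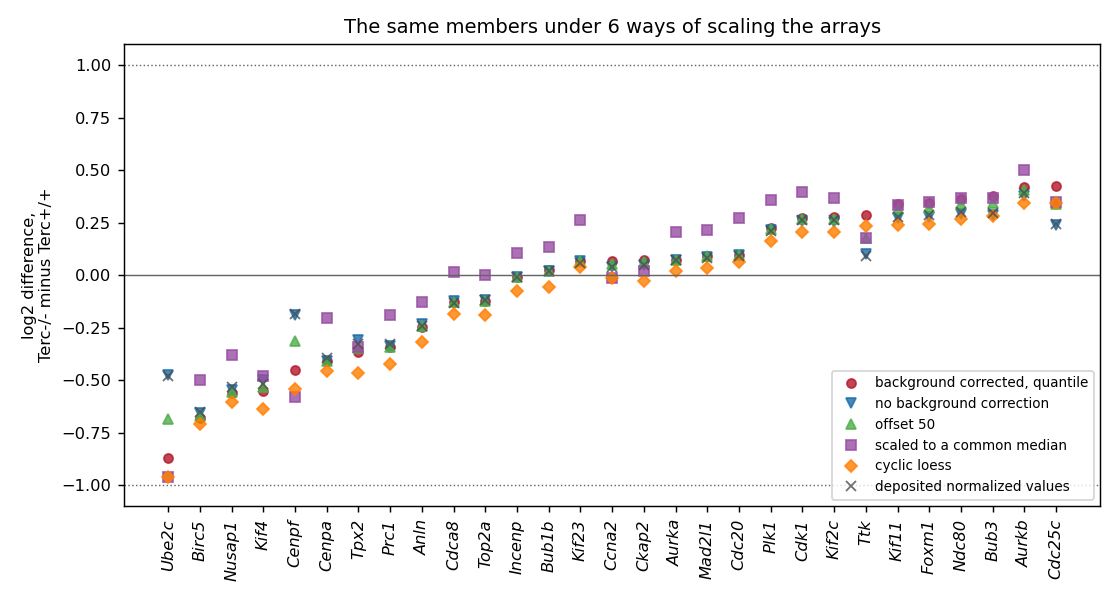
Log2 difference, Terc-/- minus Terc+/+, of the 29 members detected on both arrays under 6 ways of scaling, ordered by the value reported in the text. No member passed the dotted 2-fold lines under any of the 6, and Ube2c ran from -0.96 to -0.47.

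Other genes of the mitotic machinery, taken as lists by function, gave medians near 0 too. Of 31 detected genes among 39 other mitotic regulators, 1 was 2-fold or more lower and 2 were higher, with a median of 0.04. By that size 8.81% of all detected genes were lower and 6.86% higher. The lower gene was Cdc25b, a phosphatase that activates Cdk1, with raw values of 278 in Terc-/- and 526 in Terc+/+ and a difference of -1.32. The higher genes were Cep55, a midbody protein of the last step of cell separation, with 405 in Terc-/- and 230 in Terc+/+ (1.24), and Iqgap3, with 412 in Terc-/- and 252 in Terc+/+ (1.05). Cdc25b, Cep55 and Iqgap3 were dim, and their raw values were less than 2-fold apart. They passed 2-fold in values with background correction.

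Of 22 other kinetochore and centromere genes, none passed 2-fold in either direction, and the median was -0.02. Cenpk, of the inner kinetochore, was at -0.84, and Knstrn, a spindle and kinetochore protein, at 0.80. Zwint, which recruits checkpoint proteins, was at -0.50. Among 10 subunits and regulators of the anaphase-promoting complex the median was 0.03. Fzr1, which replaces Cdc20 as activator in late mitosis and G1, was 2-fold lower at 5331 in Terc-/- and 9532 in Terc+/+, a difference of -1.01, with probes from -1.20 to -0.77. The subunit genes Cdc23 and Anapc4 were at 0.70 and 0.54.

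Cohesin, separase and condensin genes had a median of -0.10 over 19 detected genes, with none past 2-fold. Smc2, a condensin subunit, was at -0.97, Wapl, which releases cohesin, at -0.73, and Ncapg, also of condensin, at -0.58. Probes detected on both arrays ran from -0.84 to 0.32 for Wapl and from -0.58 to 0.27 for Ncapg, so neither gene had a shared direction. Centrosome and gamma-tubulin genes had a median of 0.03 over 15, again with none past 2-fold, Pcnt (pericentrin) being at 0.51, Cep152 at 0.39 and Haus5 at 0.30. These lists, like the members, lay close to the median of all detected genes.

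Genes of DNA replication, the step before mitosis, lay lower. Of 25 detected genes of DNA replication and S-phase entry, 4 (16%) were 2-fold or more lower in Terc-/- and none higher. Of all detected genes, 8.81% were lower and 6.86% higher by that size. In sign 22 of the 25 were below 0, as were 49.1% of all detected genes, and the median was -0.45. E2f2, an activating E2F factor, had 4961 in Terc-/- and 8822 in Terc+/+, a difference of -1.03. Ccne1 was at -1.29 and Cdc6 at -1.08. Orc1, a subunit of the origin recognition complex, was above background in the Terc+/+ pool alone. It counts among the 4 by its bound of 2.44-fold lower in values with background correction. Orc1 was dim, and its raw values were less than 2-fold apart. Of 8 detected DREAM and MuvB regulators, the complex that binds the CHR, 1 (12.5%) was 2-fold lower, beside 8.81% of all detected genes. This was Tfdp2, a dimerisation partner of E2F factors, with 499 in Terc-/- and 1965 in Terc+/+, a difference of -2.32, or 4.99-fold lower. The others went both ways, with 5 of the 8 below 0 and 3 above it. E2f4 and E2f5, the repressive E2Fs of that complex, were at -0.95 and -0.77, and Tfdp1, the other E2F partner, at 0.71. Mybl2 (B-Myb), which joins MuvB at mitotic genes, was at 0.18 by its brightest probe, with probes from 0.18 to 0.85. The difference between these lists and the mitotic members was not tested.

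Markers of the marrow lineages that hold most dividing cells moved in opposite directions in the same arrays. All 9 detected of 12 red-cell precursor markers were 2-fold or more lower, beside 8.81% of all detected genes. Their median was -3.18 and their summed raw intensities were 17232 in Terc-/- and 90668 in Terc+/+. Klf1, the transcription factor of that lineage, had 478 in Terc-/- and 4414 in Terc+/+. These counts use the brightest probe, and a further probe of Sptb, spectrin beta, was at -0.68 where the brightest was at -3.01. Of 7 detected B-cell precursor markers, 6 were 2-fold or more lower, with a median of -1.80 and summed raw intensities of 2412 in Terc-/- and 7365 in Terc+/+.

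On the higher side, 6 of 7 primary-granule markers of granulocyte precursors were 2-fold or more higher, beside 6.86% of all detected genes, with a median of 1.61. Their summed raw intensities were 157160.1 in Terc-/- and 71405 in Terc+/+. Elane, neutrophil elastase, had 21232 in Terc-/- and 7874 in Terc+/+. Of 8 mature neutrophil markers, 5 were 2-fold or more higher (median 1.39), with summed raw intensities of 159259 in Terc-/- and 99919 in Terc+/+. Megakaryocyte markers were lower, with 5 of 6 past 2-fold, beside 8.81% of all detected genes that were lower by that size. Their sums were 15471 in Terc-/- and 28708 in Terc+/+.

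Defining genes of bone were present. All 6 detected bone-forming cell markers, Bglap and Col1a1 among them, were 2-fold or more lower, beside 8.81% of all detected genes. Their summed raw intensities were 8723 in Terc-/- and 46162 in Terc+/+. Of 5 detected cartilage markers, 4 were lower by that size, with sums of 4939 in Terc-/- and 12312 in Terc+/+. Whether opposite shifts of these cell populations contribute to the small differences of the mitotic genes was not tested.

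**Figure D5:**
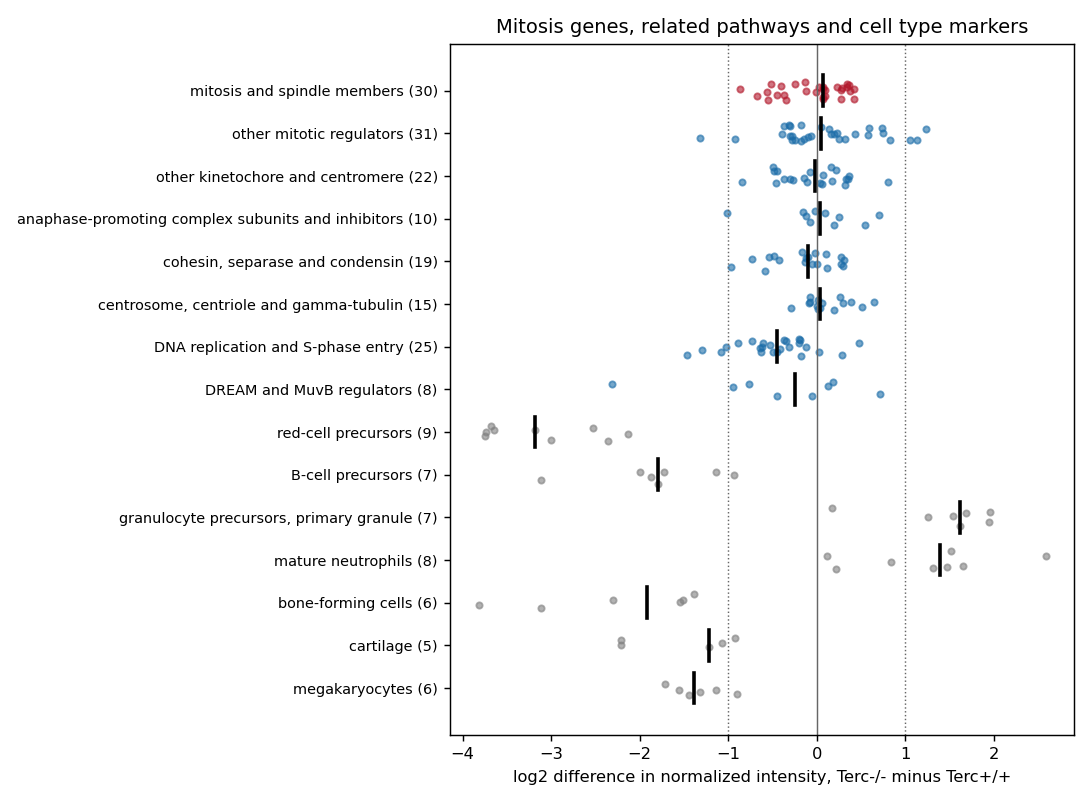
Normalized log2 difference, Terc-/- minus Terc+/+, of each detected gene (points) and the median (black bar) for the members (red), related pathway lists (blue) and cell type markers (grey), with the number of detected genes in brackets. The members centre on 0.07, the replication list on -0.45, red-cell precursor markers on -3.18 and primary-granule markers on 1.61.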

How the data were processed

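Total RNA of tibia was labelled as biotinylated cRNA with a kit for this bead array platform, per the labels' protocols. The deposited intensity is, per the file headers, a non-normalized signal for 45281 probes, on a linear scale and with a lowest value of 88.7, beside a deposited detection p-value per probe. The series' value table holds intensities normalized by the authors, with scaling and software not given in the sources used here. Its probes rank as on the non-normalized arrays, and it is linear with nearly identical column distributions, and served as an alternative.

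Background was corrected with the normexp model from the detection p-values (nec of limma 3.58.1, R 4.3.3, offset 16), followed by quantile normalization between the arrays and log2. Gene symbols came from the platform annotation, which gave 1 symbol to 34885 probes, several to 18 and none to 10378, and no symbol changed through Entrez identifiers. A gene was its probe with the highest mean log2 value. Sizes of 2-fold and 1.5-fold are descriptions, as 1 array per genotype allows no test. A gene detected on 1 array only was counted by its bound against the detection floor, while list medians take normalized values. The steps were tested on simulated data with an assumed noise SD of 0.15 on the log2 scale, below the between-probe SD of 0.313. The changes put in were 2-fold or more, so that test does not bear on the small differences described here. The named genes are all members, and up to 3 of each further list with the largest absolute difference among genes detected on both arrays. Genes named beyond these (Orc1, Tfdp1, Mybl2, Klf1, Sptb, Elane, Bglap and Col1a1) were chosen after their values were seen. Members and lists were chosen with earlier results of these data known. Figures were drawn with matplotlib 3.10.9.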

Additional observations from a re-analysis of the deposited data

How the results depend on the processing

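No paired analysis was possible because each genotype had 1 array, and for the same reason no replicate could be left out. Under the 9 alternatives, no detected member passed 2-fold in either direction and none was 1.5-fold higher, and the median over detected members lay between -0.02 (cyclic loess) and 0.12 (scaling to a common median). The 2 members 1.5-fold or more lower came to 1 without background correction (Birc5), to 1 with the deposited normalized values (Birc5), to 1 with scaling to a common median (Ube2c), to 4 with cyclic loess (Ube2c, Birc5, Kif4 and Nusap1) and to 4 with the mean over detected probes (Ube2c, Nusap1, Top2a and Kif23). In that last count, Top2a and Nusap1 rest on probes detected in Terc+/+ only, while Kif23 rests on its probe at -1.89, detected on both arrays. With the probes of 1 array at their bound, an alternative chosen after seeing the data, the count was 1 (Ube2c). Over the 29 members detected on both arrays and the 6 alternatives that change values and not which genes enter, 169 of the differences moved by less than the between-probe SD of 0.313 and 5 by more. These were Ube2c at -0.47 without background correction and -0.48 with the deposited values, and Top2a at -0.71, Kif23 at -0.60 and Kif4 at -0.20 with the mean over probes, which for Top2a and Kif23 was -0.50 and -0.52 with the bounds. Among all genes, 877 were 2-fold lower and 683 higher, against 487 and 356 without background correction and 506 and 362 with the deposited values. Without background correction the differences of Ube2c, Cenpf, Ttk and Cdc25c, all dim, came closer to 0.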

Other observations

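Several genes beside the members gave probe values far apart on the same arrays, and were picked out after their values were seen. The probes of Mpo, myeloperoxidase of the primary granules, ran from 0.17 to 1.99 on the log2 scale, and its brightest probe had raw intensities of 46342 in Terc-/- and 37879 in Terc+/+. Those of Sptb, a red-cell membrane protein, ran from -3.01 to -0.68, and those of Wapl from -0.84 to 0.32. The ranges cover probes detected on both arrays, and the lists use the brightest probe of each gene.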
